A study of Mus musculus with 6 samples.

Results

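Spp1, Gpnmb, Lgals3 and Itgax are 4 genes of disease-associated myeloid cells, and all 4 were found by symbol among the 18792 genes of a single-cell table of the mouse spinal cord. Droplet-based scRNA-seq (10x single cell 3' chemistry) had been run on 6 libraries, 2 from Nd6 mice with EAE, 2 from WT mice with EAE, 1 from Nd6 control mice and 1 from WT control mice. EAE (experimental autoimmune encephalomyelitis) is an autoimmune disease of the CNS set off by immunization with a myelin peptide, here of MOG, and the EAE mice were studied at day 30, having been immunized as females aged 8 to 20 weeks. Control mice were of both sexes. Nd6 mice carry the ND6-P25L change in a complex I subunit encoded by mitochondrial DNA, which is not restricted to microglia. All mice were perfused with inhibitors of transcription (actinomycin D and triptolide) before the cord was dissociated. Nothing in the table or the labels links a cell to a library. The 13614 cells carry 1 of 6 suffixes that divide them into sets, lettered here by size from A (4633 cells) to F (809 cells), and 18 barcodes occur in more than 1 set. The table was therefore read as 1 pooled sample, Nd6 and WT mice or EAE and control mice were not compared, and the values are a description with no p-value. The 95% intervals given with shares are Clopper-Pearson intervals, and they account for counting error alone.

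Myeloid cells were taken as those in which C1qa, Ctss and Tyrobp, genes of a complement component, a lysosomal protease and an immune adaptor, summed to 8 or more. This gate held 11481 cells (84.3%), between 669 in set F and 4153 in set A. A total per cell lay between 687 and 1578 (median 962), a range so narrow that the deposited values were taken as adjusted for depth, though how is not given in the sources used here, and a value of 0 cannot be weighed against the reads behind it. Of the myeloid-gated cells, 3588 also met the marker rule of another lineage, most of them through oligodendrocyte genes (2473 cells). Just outside the gate, at a sum of 6 or 7, 81.9% of 624 cells had a value for Spp1, 23.6% for Gpnmb, 39.3% for Lgals3 and 5.61% for Itgax. Just inside it, at a sum of 8 or 9, the shares of 954 cells were 89.3%, 32.5%, 50.6% and 8.07%, so each share was higher just inside the gate than just outside it.

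Microglia that meet damaged myelin or dying cells lower the genes of the resting state and take up a phagocytic, lipid-handling program often called DAM (disease-associated microglia), in which the receptor Trem2 and the lipid carrier Apoe are central. Macrophages that enter the CNS from blood can switch on many of the same genes. Spp1 encodes osteopontin, a secreted glycoprotein that binds integrins and CD44. Gpnmb encodes a type I transmembrane glycoprotein of phagocytes, induced by the lysosomal transcription factors of the MITF and TFE family. Lgals3 encodes galectin-3, a lectin that binds beta-galactosides at the cell surface and gathers on damaged lysosomes. Itgax encodes CD11c, the alpha chain of complement receptor 4, long used as a marker of dendritic cells and also carried by activated microglia.

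The 4 genes lie on 4 chromosomes and share no neighbourhood. In the GENCODE M21 annotation of GRCm38 (the build of the counting, though not its annotation release), all lie on the plus strand: Spp1 at chr5:104435118-104441050, Gpnmb at chr6:49036546-49070929, Itgax at chr7:128129547-128150657 and Lgals3 at chr14:47367751-47386160. The first protein-coding transcript has 7 exons for Spp1, 11 for Gpnmb, 30 for Itgax and 6 for Lgals3. Intronic reads were counted together with exonic ones, and the values cannot be divided into exons and introns. Of the 4, only Spp1 overlaps another annotated gene (Gm42793). The bases around the RefSeq start sites of the 4 genes are shown (GRCm38.p6, from 120 bases before to 30 bases into the transcript). They are given on the plus strand with motif matches in capitals. Spp1 has 2 starts in the RefSeq table, and 1 is shown.
Spp1 (chr5:104434991-104435140): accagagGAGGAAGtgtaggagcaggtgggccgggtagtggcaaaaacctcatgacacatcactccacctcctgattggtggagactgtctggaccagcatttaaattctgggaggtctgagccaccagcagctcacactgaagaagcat
Gpnmb (chr6:49036398-49036547): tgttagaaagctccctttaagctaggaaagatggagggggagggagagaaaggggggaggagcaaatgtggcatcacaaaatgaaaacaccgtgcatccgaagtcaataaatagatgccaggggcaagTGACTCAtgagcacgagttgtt
Itgax (chr7:128129430-128129579): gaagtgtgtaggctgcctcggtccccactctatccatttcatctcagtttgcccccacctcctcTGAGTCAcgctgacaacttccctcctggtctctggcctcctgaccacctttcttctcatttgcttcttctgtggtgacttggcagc
Lgals3 (chr14:47373740-47373889): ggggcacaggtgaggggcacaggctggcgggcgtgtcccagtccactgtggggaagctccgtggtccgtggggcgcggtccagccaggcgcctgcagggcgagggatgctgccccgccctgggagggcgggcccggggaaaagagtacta

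Across these windows 5 motifs were searched on both strands. The core GAGGAAG of the myeloid factor PU.1 occurs in the Spp1 window, at position -113, and in 7.15% of 32851 RefSeq windows of the same length. The AP-1 site TGANTCA occurs in the Gpnmb window (TGACTCA at position 9 of the RefSeq transcript) and in the Itgax window (TGAGTCA at -56), and in 4.16% of all windows. The first GENCODE transcript of Gpnmb begins downstream of that match, at chr6:49036615. None of the 4 windows holds AACCACA, a RUNX site (2.64% of all windows), CACGTG, the palindromic E-box that MITF and TFE factors can bind (4.47%), or TATAAA (7.16%). The Lgals3 window holds no match at all. No motif was shared by all 4 genes within these windows, and a match is a run of letters, not a measured binding site.

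Within the myeloid-gated cells, Spp1 was listed in 9194 cells (80.1%, interval 79.3 to 80.8%), Lgals3 in 5385 (46.9%, 46.0 to 47.8%), Gpnmb in 3921 (34.2%, 33.3 to 35.0%) and Itgax in 1034 (9.01%, 8.49 to 9.54%). Where Spp1 was listed its median value was 7, the 90th percentile 13 and the highest value 226. Lgals3 and Gpnmb were both at a median of 1 where listed, with highest values of 15 and 16. Itgax reached at most 4, and 957 of its 1034 cells had a value of 1. The distribution of Spp1 was thus unlike that of the other genes, since 24.7% of myeloid-gated cells had a Spp1 value of 10 or more, against 0.113% for Lgals3, 0.0261% for Gpnmb and 0 cells for Itgax. Low values also differed with the number of genes listed in a cell. Over all 13614 cells, gated or not, Lgals3 was at 1 in 41 and at 2 in 205 of the 1362 that listed the fewest genes. In the 1362 that listed the most, it was at 1 in 402 and at 2 in 133. A value of 2 is therefore not simply more RNA than a value of 1.

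The sets differed far more than the counting intervals. Spp1 was listed in 98.9% of the myeloid-gated cells of set A, 93.3% in B, 92.5% in C, 8.36% in D, 7.56% in E and 83.7% in F. The order was A, then B and C, whose intervals overlap (92.4 to 94.1% and 90.9 to 93.8%), then F (80.7 to 86.4%), with D and E far below and overlapping each other. The mean Spp1 value was 10.0 in A, 6.16 in B, 5.47 in C, 0.128 in D, 0.109 in E and 4.39 in F. In sets D and E, 81 of 89 and 65 of 68 Spp1-listed cells had a value of 1, whereas values of 5 to 29 made up 90.5% of all myeloid-gated cells in A and 61.1% in B. Sets D and E thus held nearly all their few positive cells at the lowest value.

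Gpnmb was listed in 58.4% of the cells of A, 26.4% in B, 34.1% in C, 23.2% in F, in 1 of 1064 cells of D and in none of the 900 cells of E (interval 0 to 0.409%). Lgals3 was listed in 61.2% of the cells of A, 60.6% in B, 38.9% in C, 39.0% in F, 1.22% in D and 0.667% in E. The intervals of A and B overlap for Lgals3, as do those of C and F, so that A and B were set apart by Gpnmb (56.9 to 59.9% and 24.9 to 27.9%) beyond counting error and were not separated by Lgals3. Itgax was listed in 15.9% in A, 6.19% in B, 6.92% in C, 9.42% in F, 0.47% in D and 0.556% in E. Set F (7.31 to 11.9%) lay above B for Itgax (5.40 to 7.05%), while C (5.6 to 8.43%) overlapped both. Without set A, the pooled shares dropped to 20.4% for Gpnmb and 5.09% for Itgax. The mean of Lgals3 was highest in B (1.22) and not in A (1.01), while those of Spp1, Gpnmb and Itgax were highest in A. The sets also differed in other respects. The 10 homeostatic microglia markers used here summed to a mean of 8.43 and 7.79 in the myeloid-gated cells of D and E, 3.66 in F and 1.74 to 2.16 in A, B and C. The median share of a cell's total held by mitochondrial genes was 9.97% in D, 10.9% in E and 9.20% in F, against 4.84 to 6.10% in A, B and C. Their part in the difference between sets was not tested, and the condition, animal and run behind a set cannot be told apart.

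**Figure D1:**
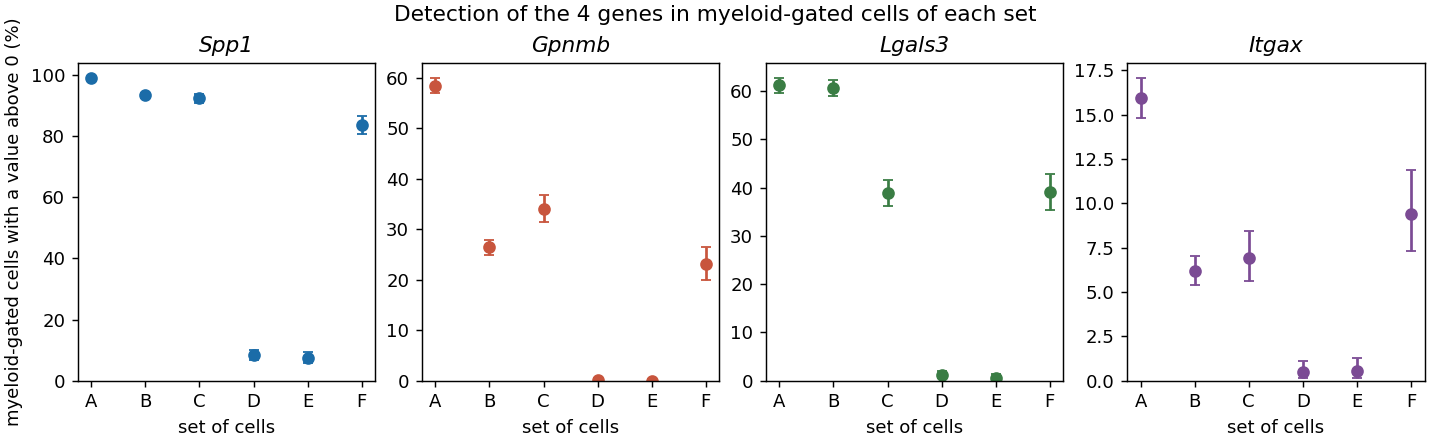
Percent of myeloid-gated cells with a deposited value above 0 (vertical axis, own scale in each panel, starting at 0) for Spp1, Gpnmb, Lgals3 and Itgax in the 6 sets of cells A to F (horizontal axis), with exact 95% intervals as bars. All 4 genes lie at or below 8.36% in sets D and E, while Spp1 lies between 83.7% (F) and 98.9% (A) in the others.

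Cells that had all 4 genes numbered 347 (3.02% of myeloid-gated cells, interval 2.72 to 3.35%), of which 262 were in set A, 57 in B, 17 in C, 11 in F and none in D or E. Without set A the share of such cells was 1.16%. A further 2487 cells (21.7%) had 3 of the genes, 4109 (35.8%) had 2, 2467 (21.5%) had 1 and 2071 (18.0%) had none. The commonest combinations were Spp1 with Lgals3 alone (2564 cells), Spp1 alone (2290), none of the genes (2071), Spp1 with Gpnmb and Lgals3 (2030) and Spp1 with Gpnmb (1312). Of the 2071 cells with none, 962 lay in D and 823 in E. Over the pooled sets, Gpnmb, Lgals3 and Itgax were rarely listed without Spp1: Spp1 was also listed in 98.4% of Gpnmb-listed, 97.1% of Lgals3-listed and 96.5% of Itgax-listed cells, against 70.6%, 65.1% and 78.5% of the cells without each of them. Inside set A these contrasts were small (99.4% against 98.1% for Lgals3 and 99.2% against 98.8% for Itgax). In D and E most myeloid-gated cells lacked Spp1, and so did most of the few Lgals3-listed cells (10 of 13 in D and 5 of 6 in E). Spp1 was still listed in 23.1% of the Lgals3-listed cells of D against 8.18% of the others. In E it was 16.7% against 7.49%. These shares rest on 3 cells of D and 1 of E with both genes. Cells with more of the genes also had more genes in all. In set A the median number of genes with a value was 700.5 in cells with all 4, 679 with 3, 627 with 2, 549 with 1 and 433.5 with none.

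The co-detection of Spp1 with the other genes was far stronger over the pooled sets than inside them. Over all myeloid-gated cells the odds ratio of finding both genes in a cell was 25.1 for Spp1 and Gpnmb, 17.9 for Spp1 and Lgals3 and 7.61 for Spp1 and Itgax. Taken within the 6 sets by the Mantel-Haenszel estimate, the same pairs had 3.22, 2.79 and 1.48. The pairs without Spp1 were weaker: Gpnmb and Lgals3 had 2.44 pooled and 1.34 within sets, Lgals3 and Itgax 2.0 and 1.27, and Gpnmb and Itgax 2.11 and 1.18. In sets A, B, C and F, the only ones with at least 5 cells in every field of each table of 2 genes, the odds ratio ranged from 1.98 (C) to 4.49 (F) for Spp1 and Gpnmb and from 1.02 (A) to 2.06 (F) for Gpnmb and Itgax. With the cells of each set also divided into 5 classes by the number of genes listed (an alternative added after seeing the data), the 3 pairs with Spp1 had 3.24, 2.97 and 1.6, and the others 1.19 (Gpnmb and Lgals3), 1.13 (Lgals3 and Itgax) and 1.06 (Gpnmb and Itgax). With set and gene number held, the odds ratios combined over sets were thus larger for the pairs with Spp1 than for those without it. This order did not hold inside every set for Spp1 and Itgax. In B, not divided by gene number, that pair had 1.19, against 1.46 (Gpnmb and Lgals3), 1.64 (Gpnmb and Itgax) and 1.45 (Lgals3 and Itgax). In F it had 1.95, against 2.06 for Gpnmb and Itgax.

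**Figure D2:**
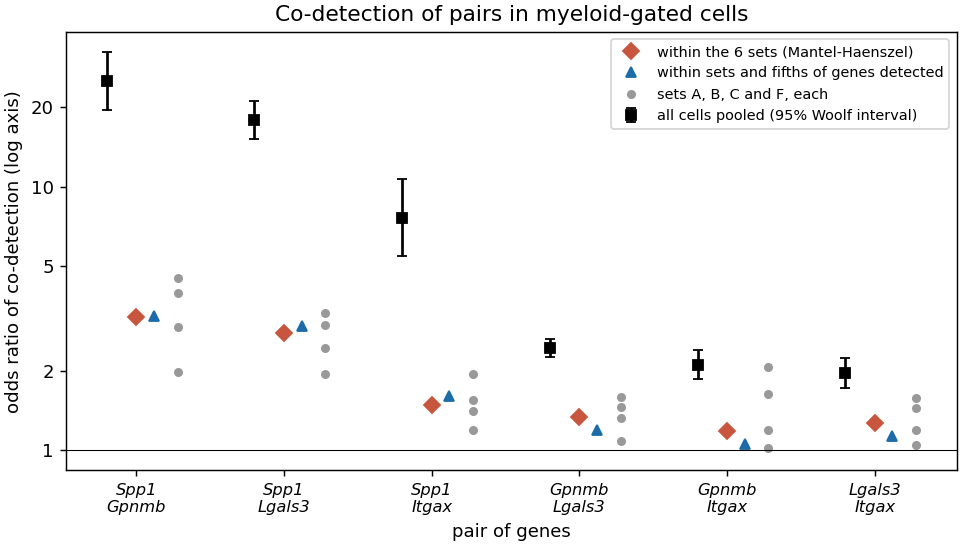
Odds ratio of co-detection (vertical, log axis, line at 1) for the 6 pairs of genes (horizontal axis) in myeloid-gated cells, pooled (squares, 95% Woolf interval), within the 6 sets (diamonds), within sets and 5 classes of genes listed (triangles), and in sets A, B, C and F each (grey). For Spp1 and Gpnmb the pooled value is 25.1 and the value within sets 3.22.

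Levels of Spp1 were looked at as well as its detection. When the cells of a set were divided into 5 equal classes by the Spp1 value scaled to the cell's total, Gpnmb was listed in 14.4%, 22.8%, 30.2%, 33.9% and 30.6% of cells from the lowest to the highest class in set B, and in 7.46%, 11.9%, 29.3%, 35.1% and 32.1% in set F. In set A the same shares were 51.6%, 60.6%, 60.9%, 60.7% and 58.2%, so there the step lay between the lowest class and the others. In set C they were 26.4%, 37.3%, 35.8%, 36.9% and 33.8%, again with no further increase above that step. The lowest class holds all cells without Spp1 (46 of 831 in A, 227 of 679 in B, 98 of 261 in C and 109 of 134 in F). A step above it therefore mixes detection with level. Lgals3 in set B was listed in 64.8% of the highest and 41.1% of the lowest class, while Itgax lay between 4.57% and 7.22% in all 5. In the highest and lowest class, Lgals3 had 45.5% and 26.1% in F, 40.8% and 35.2% in C, and 59.4% and 56.4% in A. Itgax had 11.9% and 5.22% in F, 10.4% and 5.75% in C, and 13.7% and 14.7% in A. Lgals3 in A was highest, at 66.0%, in the class next above the lowest. The mean sum of the homeostatic markers was 1.49 in the highest and 3.81 in the lowest class of B, 2.37 and 6.66 in F, and 1.46 and 2.82 in C, but nearly flat in A (1.68 and 2.00).

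A small group of cells held very high Spp1 values. Among the myeloid-gated cells, 71 (0.618%) had a Spp1 value of 30 or more, a limit chosen after the values had been seen, and they carried 6.33% of all Spp1 in the gate. They were 26 cells of set A, 22 of B, 19 of C, 3 of F, 1 of D and none of E. P2ry12, a purinergic receptor of resting microglia, was listed in none of the 71 (a limit of 3 counts is 4.23%), against 14%, 16.1% and 12.6% of the remaining cells of A, B and C. Lpl, which encodes the lipoprotein lipase of the DAM program, was listed in 57.7% of the high cells of A against 30.1% of the rest, in 11 of 22 against 5.72% in B, and in 73.7% against 19.2% in C. Lgals3 was listed in 88.5% against 61.0% in A, 81.8% against 60.5% in B and 63.2% against 38.5% in C. Itgax was listed in 23.1% against 15.9% in A, 27.3% against 6.05% in B and 26.3% against 6.63% in C. Gpnmb was listed in 65.4% against 58.4% in A, 11 of 22 against 26.2% in B and 57.9% against 33.7% in C, the smallest difference being in A. Myelin gene Mbp ran the other way, listed in 76.9% against 98.8% in A, 72.7% against 94.2% in B and 57.9% against 95.3% in C. By the marker sums described next, 30 of the 71 cells were homeostatic microglia-like, 6 were monocyte or macrophage-like and 35 had no class. Of all myeloid-gated cells, the same rule named 1916 of 4153 in A, 1028 of 3394 in B and 446 of 1301 in C homeostatic microglia-like. A second homeostatic marker, Tmem119, was listed in 0 of the 26 high cells of A and in 1 of the 22 of B. At Spp1 values of 10 to 14 it was listed in 13.4% and 15.4%, with overlapping intervals. The homeostatic markers as a list were thus not absent, and these counts do not show whether P2ry12 stands alone among them. The high cells did not have more genes listed in every set: their median was 472.5 against 650 in A, 490.5 against 553.5 in B and 514 against 409 in C.

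**Figure D3:**
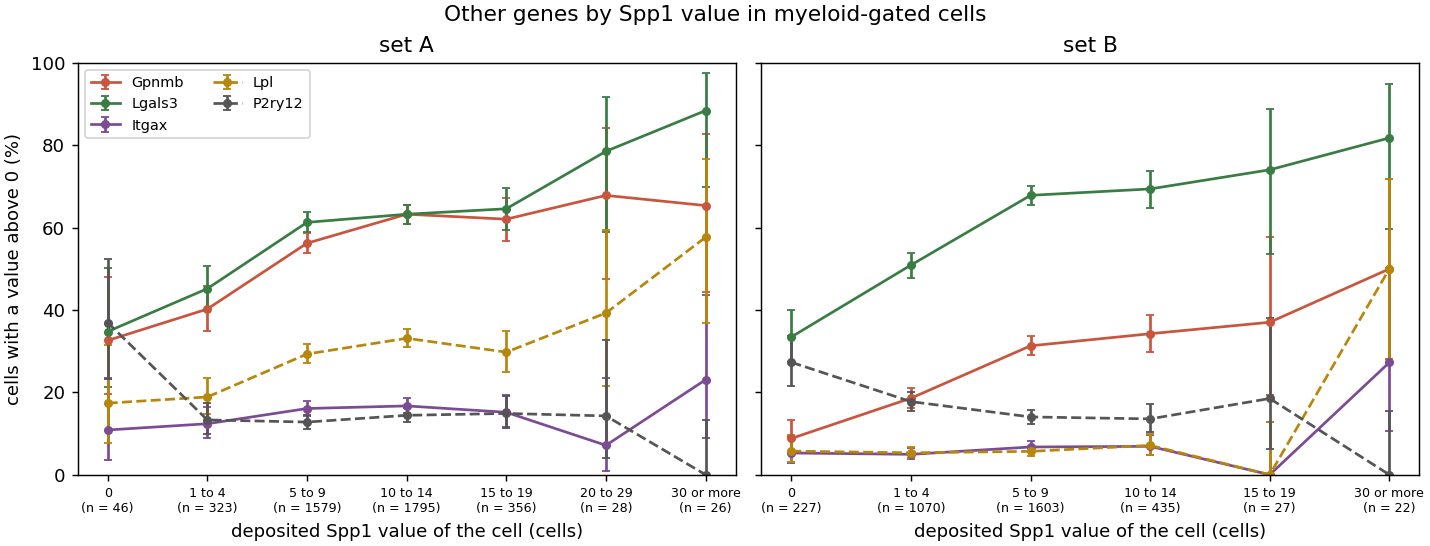
Percent of myeloid-gated cells with a value above 0 (vertical axis) for Gpnmb, Lgals3 and Itgax (solid lines) and for Lpl and P2ry12 (dashed) by the deposited Spp1 value of the cell (horizontal axis, with the number of cells) in sets A and B, with exact 95% intervals; bins under 20 cells are not drawn. In the cells at 30 or more, P2ry12 is at 0 in both sets while Lpl is listed in 57.7% (A) and in 11 of 22 cells (B).

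The few positive cells of sets D and E could be looked at one gene at a time. In D, 13 cells had Lgals3, and 5 of them had Clec7a, a lectin receptor of the DAM program, against 2.28% of the cells without Lgals3. In E, 6 cells had Lgals3 (2 with Clec7a, against 3.02% without) and 5 had Itgax (4 with Clec7a, against 2.79%), while in D 1 of the 5 Itgax cells had Clec7a. Gpnmb was found once in D, in a cell that also had Spp1 and Lgals3. Spp1 in these sets was distributed otherwise: 85 of the 89 Spp1-listed cells of D and 63 of the 68 of E had Lyz2, the gene of lysozyme, against 24.2% and 23.7% of the cells without Spp1. Clec7a was listed in 4.49% of Spp1-listed cells of D against 2.56% of the others, and in 2.94% against 3.25% in E. Cells with a Spp1 value of 1 to 4 had fewer genes listed than those at 0, at a median of 320 against 513 in D and 306.5 against 502.5 in E. The low-level Spp1 of D and E thus went with Lyz2 and with low gene numbers, the part of which was not tested, while Clec7a went with Lgals3 in both sets and with Itgax in E, on counts of 5 to 13 cells.

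Subclasses of myeloid cells were read from marker sums (at least 2 markers of a class and a sum of 2 or more, higher than that of any other class). This named 6694 of 11481 cells: 5603 homeostatic microglia-like, 768 monocyte or monocyte-derived macrophage-like, 257 proliferating cell-like, 57 border-associated macrophage-like and 9 dendritic cell-like, too few to describe. The classes rest on few markers per cell (2615 myeloid-gated cells had a leading sum of 2 and 2624 a sum of 1), and the border-associated macrophages could be searched with 7 of 8 markers. Over all sets Spp1 was listed in 65.2% of homeostatic microglia-like cells, but this mixed 98.6% in A, 88.2% in B, 87.7% in C and 79.4% in F with 6.80% in D and 6.36% in E. Cells bearing homeostatic markers thus had Spp1 in most cells of 4 sets, at a mean of 10.4 in A. Set B held 727 of the 768 monocyte or macrophage-like cells, and there Spp1 was listed in 98.9% of them (mean 7.31), in 88.2% of the 1028 homeostatic microglia-like cells (5.37) and in 78.2% of the 206 proliferating cell-like cells (3.25). In the same order of classes within B, Lgals3 was listed in 72.2%, 55.2% and 45.1%, and Gpnmb in 32.0%, 25.4% and 12.6%. The intervals of these 3 classes did not overlap for Lgals3 (68.8 to 75.4%, 52.1 to 58.2% and 38.2 to 52.2%) except between the homeostatic and the proliferating cells. Itgax did not set the classes apart in B (6.33%, 5.54% and 4.37%, overlapping intervals). In A, 34 monocyte or macrophage-like cells had Lgals3 in 55.9% and 1916 homeostatic microglia-like cells in 63.6%, with overlapping intervals, and no other set held 20 monocyte or macrophage-like cells. In D and E, Spp1 was listed in 24.1% and 18.3% of the myeloid-gated cells without a class (87 and 93 cells), above its share in the homeostatic microglia-like cells there (intervals 15.6 to 34.5% and 11 to 27.6%, against 5.30 to 8.58% and 4.77 to 8.28%). The cells without a class also had fewer genes listed, at a median of 357 against 512 in D and 360 against 502 in E. The part of this in the difference was not tested.

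To describe the cells in which the genes meet, other genes were compared between myeloid-gated cells with all 4 genes and with none, inside each set with at least 20 cells of both. Only A (262 cells with all 4 and 20 with none) and B (57 and 133) qualified. Of 3602 genes with a mean above 0 in both groups of both sets, 850 (23.6%) were at a median of 1.5-fold or more and 764 (21.2%) at 1/1.5 or less, so a fold of this size alone is common and marks no gene as particular. A further 5081 genes had a mean of 0 in one of the small groups and were not compared. Of the 10 DAM stage 1 genes, 4 were at 1.5-fold or more and none at 1/1.5 or less (median 1.19). They were Cstb, an inhibitor of cathepsins (6.55 in A and 3.99 in B), Lyz2 (2.86 and 4.49), Apoe (1.84 and 2.00) and Ctsd, a lysosomal protease (1.80 and 1.21). B2m (0.775 and 0.930) was lowest. Of 17 DAM stage 2 genes compared, 8 were at 1.5-fold or more and 1 at 1/1.5 or less (median 1.30). The highest were Cst7, a cystatin (7.69 and 2.09), Clec7a (5.92 and 3.37), Lilrb4a, an inhibitory receptor, whose sets disagreed (0.366 and 7.43), and Fabp5, a fatty acid-binding protein (2.74 and 4.32), and the lowest was Serpine2, a protease inhibitor (0.430 and 0.294). Of 8 homeostatic microglia genes compared, 7 were at 1/1.5 or less and none at 1.5-fold or more, with a median of 0.376 against 1.02 over all genes compared. Tmem119 (0.174 and 0.271), P2ry13 (0.157 and 0.319), P2ry12 (0.285 and 0.405) and Gpr34 (0.488 and 0.259) were lowest, and Fcrls (0.999 and 0.682) was highest. The cells with all 4 genes had a median of 700.5 genes listed in A against 433.5 in those with none, and 656 against 588 in B, and the part of this in the folds was not tested.

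**Figure D4:**
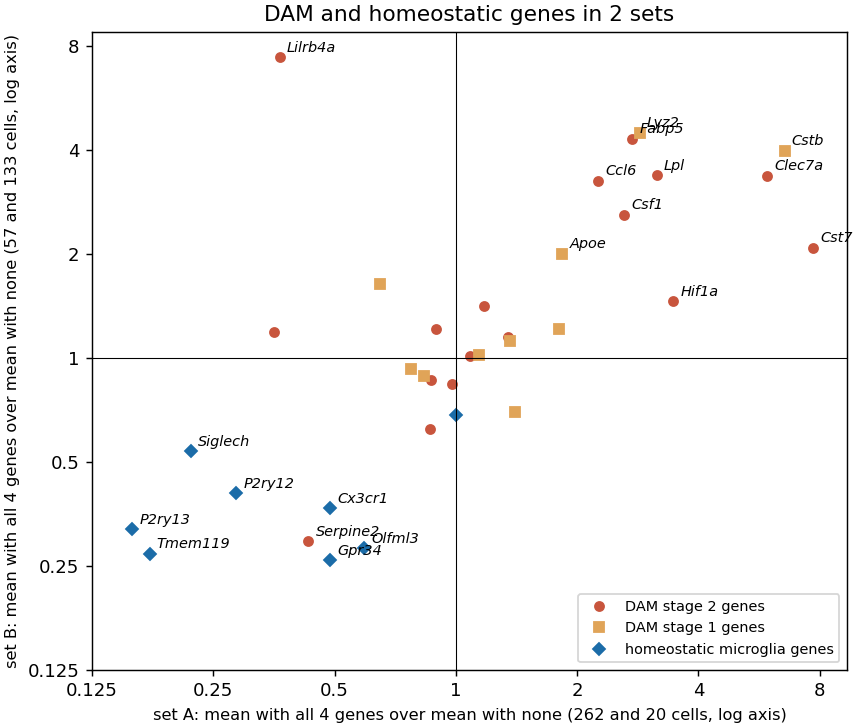
Fold of the mean (values scaled to 10000 per cell) in myeloid-gated cells with all 4 genes over cells with none, in set A (horizontal, log axis, 262 and 20 cells) and set B (vertical, log axis, 57 and 133 cells), for DAM stage 1, DAM stage 2 and homeostatic microglia genes, lines at 1. Homeostatic genes lie below 1 in both sets, and Cstb, Clec7a, Cst7, Lpl, Fabp5 and Lyz2 are among those above 2 in both.

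The groups of 20 cells are small, so cells with at least 3 of the genes were also set against cells with at most 1, an alternative chosen after seeing the data. This could be done in A, B, C and F (1835 and 648, 693 and 1074, 205 and 526, and 99 and 332 cells). Of 7783 genes, 889 (11.4%) were at 1.5-fold or more and 197 (2.53%) at 1/1.5 or less, at a median of 1.08. No DAM stage 1 gene and 2 of 18 DAM stage 2 genes passed 1.5-fold, namely Csf1, a growth factor of microglia (1.23, 1.88, 2.28 and 2.24 in A, B, C and F), and Fabp5 (1.10, 1.42, 1.63 and 1.9). Of the 10 homeostatic genes 4 were at 1/1.5 or less, at a list median of 0.702: Siglech (0.975, 0.653, 0.460 and 0.406), Gpr34 (1.22, 0.618, 0.607 and 0.380), P2ry13 (0.610, 0.685, 1.58 and 0.483) and P2ry12 (0.810, 0.752, 0.568 and 0.367). The direction of the homeostatic list median was thus kept, at smaller size, while the DAM lists lay close to all genes. Not every homeostatic gene followed it. Of the 10, 6 were below 1 in every set, and none was at 1/1.5 or less in every set. Slc2a5, at a median of 1.02, was above 1 in A and C and below 1 in B and F. In set A, Gpr34 and Fcrls were above 1 as well.

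Relatives and partners of the 4 genes were followed as lists. Over all genes compared, 11.4% of 7783 were at 1.5-fold or more with at least 3 genes against at most 1. With all 4 against none it was 23.6% of 3602. A count of 1 or 2 genes in lists this short therefore marks no list as particular. Among 7 compared receptors and partners of osteopontin, Itga5 and Itga4, alpha chains of its integrin receptors, were at 1.5-fold or more in cells with at least 3 genes (1.69 and 1.53). They were listed in only 2.26% and 3.41% of myeloid-gated cells. Cd44 and Itgb5, 2 of the 3 compared in the contrast of all 4 with none, were lower there (0.627 and 0.414). The SIBLING relatives of Spp1 (Ibsp, Dmp1, Dspp and Mepe), secreted proteins of bone and tooth matrix, gave no values, as 0 of 4 met the conditions for a fold. None of 5 binding partners of galectin-3 passed 1.5-fold in either contrast. Slc3a2, the CD98 heavy chain, was the lowest of them in the narrower one (0.659) and the highest in the wider one (1.29). Of 3 other galectins compared, 1 passed 1.5-fold with at least 3 genes, Lgals1 at 2.17 (1.30, 1.65, 2.68 and 4.33 in A, B, C and F) and at 5.39 in cells with all 4 genes, while Lgals8 was at 0.843 and Lgals9 at 0.988. Of the 4 relatives and partners of Gpnmb compared, none passed 1.5-fold with at least 3 genes, and Sdc4, a syndecan listed in 2.01% of myeloid-gated cells, had opposite directions in the wider and the narrower contrast (1.28 and 0.568). Of 14 lysosomal genes of the MITF and TFE factors, 1 passed it, Gla, the gene of alpha-galactosidase A (1.95, listed in 3.35% of myeloid-gated cells). The V-ATPase subunit gene Atp6v1h was at 1.32 (2.45 in cells with all 4 genes against none). None of 6 compared beta2 integrins and ligands of Itgax passed, among them Vcam1, an adhesion molecule (1.46), and Itgam, the alpha chain of complement receptor 3 (0.749). The monocyte and macrophage list could hardly be compared. With all 4 genes against none 2 of its 10 genes had values, Chil3, a chitinase-like protein (0.284 in A and 6.10 in B), and AA467197 (0.781 and 3.54), with opposite directions in the 2 sets.

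The genes most like each member were ranked by Pearson correlation of log-scaled values across myeloid-gated cells, computed inside each set and averaged over the 6 sets, among 2617 genes. The points share libraries and the narrow totals, and no p-value belongs to them. Spp1 was most like Lyz2 (mean r 0.435, 0.316 to 0.519 over sets), Apoe (0.387), Mbp (0.298), Fth1, the ferritin heavy chain (0.291), and the nuclear RNA Malat1 (0.281), and most unlike Marcks (-0.169), a substrate of protein kinase C. Lyz2, Apoe and Fth1 are on the DAM stage 1 list, while Mbp is a major protein of myelin and Malat1 is found in nearly all cells. Lgals3 was most like Cstb (0.138), Capg, an actin-capping protein (0.134), Spp1 (0.125), Clec7a (0.124) and Ftl1, the ferritin light chain (0.121), and it was above 0 with Cstb in every set (0.0644 to 0.237). Gpnmb was most like Spp1 (0.134), Apoe (0.123), Lyz2 (0.0966), Lgals3 (0.0960) and Anxa4 (0.0756), with set E counted as 0 because Gpnmb was not listed there and the value of set D resting on 1 cell. Itgax correlated with no gene above 0.0691 (Clec7a), too weak in such sparse values to name genes that go with it.

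Outside the myeloid gate, 1240 cells met the marker rule of another lineage and 893 met none. The means of the 4 genes were higher in myeloid-gated cells than in the 1240 cells of other lineages, by 3.56 times for Spp1, 3.4 for Gpnmb, 3.02 for Lgals3 and 2.70 for Itgax. Of each gene's summed value, 89.2% (Lgals3) to 93.3% (Spp1) lay in the gate, which itself held 84.3% of all cells. Spp1 was nonetheless listed in 57.2% of 542 oligodendrocyte-marked cells (median total 858.5), 42.4% of 269 endothelial-marked cells (1041), 68.7% of 83 astrocyte-marked cells (810), 53.1% of 64 pericyte or smooth muscle-marked cells (856.5), 41.1% of 95 T cell or NK cell-marked cells (1053) and 28.7% of 136 ependymal-marked cells (1141.5), against 80.1% of myeloid-gated cells (984). Gpnmb was listed in 4.41% (ependymal) to 21.7% (astrocyte) of these cells, and Lgals3 in 13.8% (endothelial) to 30.1% (astrocyte). These shares and the ratios of means above pool sets that the lineages fill unequally. Of the 136 ependymal-marked cells, 33 and 54 lay in D and E. Means relative to myeloid-gated cells of the same set follow below. In set A, Spp1 was listed in 18 of 20 ependymal-marked cells, 87.6% of oligodendrocyte-marked, 76.4% of endothelial-marked and 45.2% of T cell or NK cell-marked cells, so no order of lineages is read from the pooled values. The cells were named by their lineage markers alone, and the names have no independent check here.

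Other myeloid genes were listed in these cells as well. A reference of 5 myeloid genes that were not part of the gate (C1qb, C1qc, Cd74, Lyz2 and Ctsd, chosen after the data had been seen) had means in oligodendrocyte-marked cells of 43.1 to 49.7% of the myeloid-gated mean in set A, 36.2 to 50.1% in B and 34.3 to 46.4% in C. In the same cells Spp1 stood at 40.4%, 49.2% and 42.5% of its own myeloid mean, Gpnmb at 46.0%, 43.8% and 33.0%, and Lgals3 at 57.9%, 50.1% and 30.6%. In endothelial-marked cells of A the reference genes ranged from 29.3 to 36.1% and Spp1, Lgals3 and Gpnmb stood at 32.5%, 32.3% and 20.2%. In T cell or NK cell-marked cells of A the range was 15.2 to 21%, and Spp1, Lgals3 and Gpnmb stood at 14.2%, 12.7% and 21.5%. Values outside these ranges lay on both sides, for example above (Lgals3 in oligodendrocyte-marked cells of A, and at 32.8% in T cell or NK cell-marked cells of B, range 12 to 22.3%) and below (Gpnmb at 11.3% in endothelial-marked cells of B, range 23.2 to 32.5%), the last 2 of these on 8 and 2 listed cells. In the astrocyte-marked cells of B (26 cells), Spp1 at 66.2%, Gpnmb at 110.4% and Lgals3 at 78.9% all lay above the reference (34.1 to 62.5%), while in those of A (24 cells, 43.9 to 67.3%) Spp1 at 42.0% and Gpnmb at 41.7% lay just below it and Lgals3 at 69.9% just above. In cells with no lineage name, Lgals3 stood at 107.9%, 114.0% and 81.0% of its myeloid mean in A, B and C, above the reference in each (highest 66.1%, 75.0% and 80.5%), whereas Spp1 (57.1%, 65.0% and 57.6%) lay inside it. Itgax rested on at most 7 listed cells in any marked lineage of a set and is not compared. Some values of the members outside the gate thus lay in the range of other myeloid genes and some did not, and whether they are the cells' own expression was not tested.

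**Figure D5:**
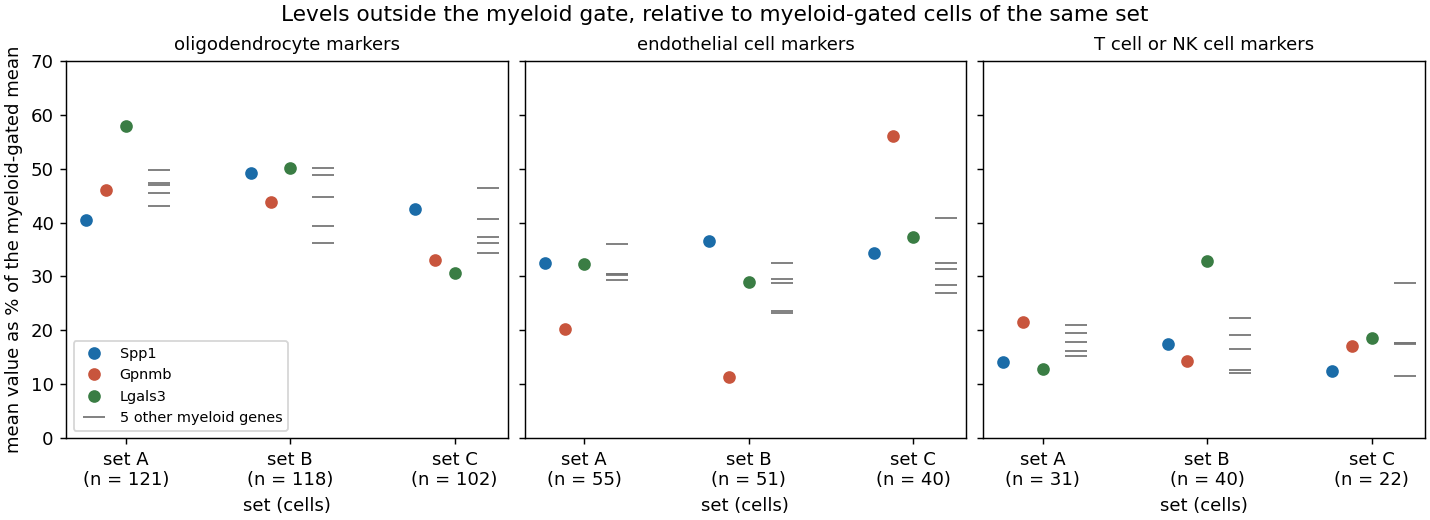
Mean deposited value in oligodendrocyte-, endothelial- and T cell or NK cell-marked cells outside the gate as percent of the mean in myeloid-gated cells of the same set (vertical axis), for Spp1, Gpnmb and Lgals3 (points) and 5 other myeloid genes (dashes), in sets A, B and C (horizontal axis, with cells). In oligodendrocyte-marked cells of set B, Spp1 is at 49.2% and the other genes at 36.2 to 50.1%; Itgax, with at most 7 listed cells in any of these groups, is not drawn.

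Sets D and E, whose myeloid-gated cells had little of the 4 genes, differed from A, B and C here. Lgals3 was listed in 3 of 33 ependymal-marked cells of D (9.09%, interval 1.92 to 24.3%) and in 5 of 54 of E (9.26%, 3.08 to 20.3%), above 1.22% (0.652 to 2.08%) and 0.667% (0.245 to 1.45%) of the myeloid-gated cells of the same sets. The intervals overlap in D and do not in E. Lgals3 was listed in 0 of 72 and 1 of 92 oligodendrocyte-marked and in 0 of 30 and 1 of 65 endothelial-marked cells of D and E. In the ependymal-marked cells of D and E, Gpnmb and Itgax were not listed and Spp1 was listed in 1 cell of D, while the 5 other myeloid genes stood at 0 to 10.2% of the myeloid-gated mean in D and 0 to 6.27% in E. Spp1 in oligodendrocyte-marked cells also stood near or above the myeloid level. It was listed in 9.72% of those of D (4.0 to 19%) and in 14.1% of those of E (7.74 to 23.0%), overlapping the shares in myeloid-gated cells (6.77 to 10.2% and 5.91 to 9.48%), and no such cell had a value above 1. There Spp1 stood at 76.1% and 129.8% of its myeloid-gated mean, and the 5 other genes at 0 to 21.3% in D and 0 to 69.1% in E. Such ratios are unsteady where the myeloid mean is low, as the highest of the 5 genes stood at 114% in the 30 endothelial-marked cells of D.

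Outside the gate 2 cells had a Spp1 value of 30 or more, and neither met a lineage's marker rule. The highest Spp1 value outside the gate was 20 in A, 52 in B, 44 in C, 1 in D and E and 10 in F. The highest Lgals3 value in the table, 21, also lay outside the gate. The cells without a lineage name had Spp1 in 73.6%, Gpnmb in 19.7%, Lgals3 in 37.3% and Itgax in 4.59% of 893 cells, shares between those of the myeloid-gated and the 1240 other marked cells (50.6%, 11.7%, 18.0% and 3.06%).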

How the data were processed

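The submitters' processing notes name Cell Ranger 7.1.0, Seurat 4.3.0.1 and GRCm38. The authors deposited 1 table of 13614 cells and 18792 genes, with intronic reads included per the study's methods. Its whole numbers have totals of only 687 to 1578 per cell, and each deposited value is therefore taken here as a depth-adjusted score and not as a UMI count. How they were adjusted is not given in the sources used here. No count model, thinning or doublet caller was applied, and depth is unknown. The filters stated for the Nd6 data (under 2500 genes and 5000 UMIs, 5 to 20% ribosomal and under 15% mitochondrial) could only be tried on the deposited values (12556 cells), as an alternative.

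The members, gates, marker and gene lists were chosen with earlier results of these data known. A value was called listed when above 0. Other lineages needed a gate sum below 8 and a marker sum of 3 or more, at least 2 markers above 0 and a higher sum than any other lineage. Folds used values scaled to 10000 per cell and genes listed in at least 1% of myeloid-gated cells with a mean above 0 in both groups of every set used, and the median over sets. From each list the text names at most the 4 genes with the highest and the 4 with the lowest folds. Likeness used ln(1 + scaled value) and genes listed in at least 5%. Genes shown beside high Spp1 values (P2ry12, Tmem119, Lpl, Clec7a, Mbp, Lyz2) were chosen after values were seen. Fold, correlation and odds ratio functions were tested on simulated data. Python 3.11.15, numpy 2.4.6, scipy 1.17.1, pandas 2.3.3 and matplotlib 3.10.9 were used.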

Additional observations from a re-analysis of the deposited data

How the results depend on the processing

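The shares of myeloid-gated cells depended on which sets were counted and on the value that counts as listed. Leaving out each set in turn gave 69.4 to 87.4% for Spp1 (80.1% with all), 20.4 to 37.6% for Gpnmb (34.2%), 38.8 to 51.6% for Lgals3 (46.9%), 5.09 to 10.2% for Itgax (9.01%) and 1.16 to 3.59% for all 4 genes (3.02%). The lowest values were those without set A, where the shares of Gpnmb, Itgax and all 4 genes moved by over 1.5 times. With equal weight for each set they were 64.0% (Spp1), 23.7% (Gpnmb), 33.6% (Lgals3), 6.58% (Itgax) and 1.82% (all 4). Counting only values of 2 or more gave 75.1%, 11.4%, 22.5%, 0.671% and 0.0261% in the same order. Without cells that also met another lineage's rule they were 76.5%, 29.6%, 44.2%, 7.75% and 2.37%. Within the stated limits Spp1 was at 81.3%, Gpnmb at 35.4% and Lgals3 at 48.2%. A gate of 12 or more gave 77.3% for Spp1, and a gate of 4 or more gave 33.1% for Gpnmb and 45.9% for Lgals3. Other gate settings stayed inside the counting intervals. The causes were not tested.

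In cells with all 4 genes against none, 850 of 3602 genes were at 1.5-fold or more and 764 at 1/1.5 or less. Among genes listed in at least 5% of myeloid-gated cells, the counts were 480 and 381. Fewer genes are compared there, so these counts alone do not show a changed share. With at least 3 genes against at most 1, 889 of 7783 genes were at 1.5-fold or more and 197 at 1/1.5 or less. The odds ratio of each pair stayed above 1 under each alternative tried, the lowest being 1.06 for Gpnmb and Itgax within sets and 5 classes of genes listed. Scaled values changed the ratio of myeloid-gated to other cells to 3.18 (Spp1), 3.13 (Gpnmb), 2.84 (Lgals3) and 2.40 (Itgax). No paired analysis was possible because no set of cells is tied to a library or replicate number and no test was made. What sequencing depth limits cannot be given, as it is unknown.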

Other observations

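The 6 sets, which no label puts in a group, fell into 2 clusters by the share of myeloid-gated cells with Spp1: 98.9% (A), 93.3% (B), 92.5% (C) and 83.7% (F), and 8.36% (D) and 7.56% (E). Lgals3 (61.2%, 60.6%, 38.9% and 39.0% in A, B, C and F, 1.22% in D and 0.667% in E) and Apoe in cells without Spp1 (100% in each of A, B, C and F, 36.8% in D and in E) divided them in the same way. P2ry12 was listed in 37.0% (A), 27.3% (B), 36.7% (C), 66.6% (D), 62.1% (E) and 49.5% (F) of the myeloid-gated cells without Spp1.

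The number of genes met in a cell was highest in A, where 37.9% of myeloid-gated cells had 3 of the 4, against 18.7% in B, 14.5% in C, 13.2% in F, 0.0940% in D and 0.111% in E.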
